A study of Drosophila melanogaster with 4 samples.

Results

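The genes described here are those for the subunits of the 26S proteasome in Drosophila melanogaster, measured as RNA in whole embryos. They were chosen by name: every annotated gene whose symbol starts with Prosalpha, Prosbeta, Rpn or Rpt followed by a number was taken, which gave 48 of the 14001 genes with a matched transcript. Of these, 32 carry a plain subunit name and 16 carry a T or R suffix, the mark of a paralogue. The study read native RNA molecules by Nanopore direct RNA sequencing in strain w118, at 4–5 h after egg laying (2 libraries) and at 0–1 h after egg laying (2 libraries). The series sets these ages after and before the embryo's own genome becomes active, so the comparison asks how the RNA of each subunit differs between embryos with zygotic transcription and embryos that hold the maternal supply. No allele, treatment or transgene other than the strain is named for either age. The RNA came from the cleared lysate of dechorionated whole embryos, so all cell types of an embryo were pooled. Per the labels, the RNA was not poly(A) selected, on the ground that tails differ in length over these hours; the part of tail length in the read counts was not tested. In such bulk samples, fewer cells of a type and less RNA per cell cannot be told apart. Whether an age's replicates are separate embryo collections is not stated in the labels; p-values therefore reflect the spread among these libraries alone, which may be technical.

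The proteasome degrades proteins that carry chains of ubiquitin. Its barrel-shaped core is made of outer rings of alpha subunits, which form the gate, and inner rings of beta subunits, some of which cut peptide bonds inside the chamber. A regulatory particle caps the barrel: its base holds a ring of Rpt ATPases that unfold substrates together with ubiquitin receptors, and its lid removes ubiquitin before the substrate enters. In the early fly embryo the machine is known for the destruction of cyclins at each nuclear division and for the clearance of maternal proteins. The intact particle holds its subunits in fixed proportions, so the RNA proportions among them are a natural quantity to follow.

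Reads per library were 883105 and 429518 in 4–5 h replicates 1 and 2, against 573849 and 557429 in 0–1 h replicates 1 and 2, and all pairs of library values below follow that order. Marker genes followed the age labels: 8 of 8 zygotic markers were higher and 4 of 5 maternal markers were lower at 4–5 h in the fit described next. Markers of maternal somatic and late differentiated tissue were low: summed over the list, maternal somatic tissue (11 genes, 7 at 0) had 3 and 3 reads at 4–5 h, against 0 and 0 reads at 0–1 h, and late differentiated tissue (10 genes, 6 at 0) 11 and 19 reads at 4–5 h, against 1 and 0 reads at 0–1 h. Hemocyte markers (8 genes, 4 at 0) had 82 and 61 reads at 4–5 h, against 103 and 101 reads at 0–1 h, but the 0–1 h sum was mostly crq, which fell (20 and 9 reads at 4–5 h, against 92 and 96 reads at 0–1 h), while srp, gcm and ush rose. Their part in the results below was not tested. Levels are each gene's reads out of 1e6 library reads (CPM) on library sizes scaled by the trimmed mean of M values (TMM), given as mean ± SD with n = 2 per age. Changes are log2 of 4–5 h over 0–1 h with their standard error (SE), from edgeR's quasi-likelihood test over 6042 genes, with Benjamini-Hochberg adjusted p under 0.05 as the threshold. A floor of 3 reads corresponds to 5.45 and 9.90 CPM in the 4–5 h libraries and 3.41 and 3.62 CPM in the 0–1 h libraries.

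Of the 48 genes, 35 had at least 1 read and 32 had enough reads to be tested. The tested ones were 31 of the 32 plain-named subunits and a single suffix paralogue, Prosalpha1R. Each library held reads of 34 members at 4–5 h and of 33 at 0–1 h. The untested genes with reads were Prosalpha1, Prosbeta2R2 and Rpt3R, and the remaining 13, all suffix paralogues, had 0 reads in all 4 libraries.

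Proteasome RNA took a smaller share of the library at 4–5 h. The members together held 3701 and 1763 reads at 4–5 h, against 6430 and 6057 reads at 0–1 h. This was 0.419% and 0.410% of all reads at 4–5 h (exact 95% binomial intervals 0.406 to 0.433% and 0.392 to 0.430%), against 1.12% and 1.09% at 0–1 h (1.09 to 1.15% and 1.06 to 1.11%). The intervals, which cover counting error only, did not overlap between ages; an exact permutation test of 2 libraries against 2 cannot go below p = 0.333. Genes for ribosomal proteins held 48.8% and 48.5% of the reads at 4–5 h, against 22.6% and 25.5% at 0–1 h. Scaling by TMM narrowed the gap in the proteasome sum to 6726 and 5816 CPM at 4–5 h, against 7317 and 7317 CPM at 0–1 h. In the deposited TPM, a measure per transcript length, the sum was 1858 and 1716 at 4–5 h, against 8378 and 7540 at 0–1 h. The part of ribosomal protein RNA in the smaller share was not tested. With those genes left out of the TMM fit the numbers of members called were the same as with them, and the members' median change was −0.21. That fit rescales the libraries, so it does not address the share of all reads.

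Most proteasome subunits were not called, and among those that were, falls outnumbered rises. On the TMM scale 11 of the 32 tested members fell and 2 rose, and 19 were not called. The share of members that fell, 34.4%, was near the 31.5% of all tested genes that fell. The share that rose, 6.25%, stood beside 28.6% of all tested genes, and in either direction 60.1% of all tested genes were called. The median change was −0.22 for the members and −0.10 for all tested genes, with 24 members below 0 and 8 above. Scaling to library size alone shifted the median of all tested genes to −1.29 and that of the members to −1.41, and on log2(TPM + 1) they were −1.80 and −2.20. On library size alone 31 members were called lower and 0 higher, beside 63.4% and 10.8% of all tested genes, and with limma on log2(TPM + 1) 32 and 0, beside 79.4% and 5.16%. DESeq2 called 2 higher and 3 lower, beside 21.5% and 18.6%. The directions below are therefore relative to the TMM scale, and each call that turns on another scale is named. With 1 library left out, the members' median change ranged between −0.49 and −0.20, and that of all tested genes between −0.15 and −0.06. Such fits have 1 library at an age. The shares of all tested genes called in them are not given, so counts of calls from them are left out.

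The members' changes also lay close together. Their SD across the 32 tested genes was 0.56 log2 units, beside 2.21 over all tested genes. Of the 32, 28 (87.5%) lay within 1 log2 unit of 0. Among the 1497 tested genes with a mean level inside the members' own range, 79.9 to 443 CPM, 703 (47%) did so. The 4 members outside that band were Rpt4, which was higher at 4–5 h, and Rpn2, Rpn5 and Rpt5, which were lower. The median change of the 1497 genes was 0.49, beside −0.22 for the members, so the members lay below genes of like level. These are descriptions over genes, which are not independent replicates.

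**Figure D1:**
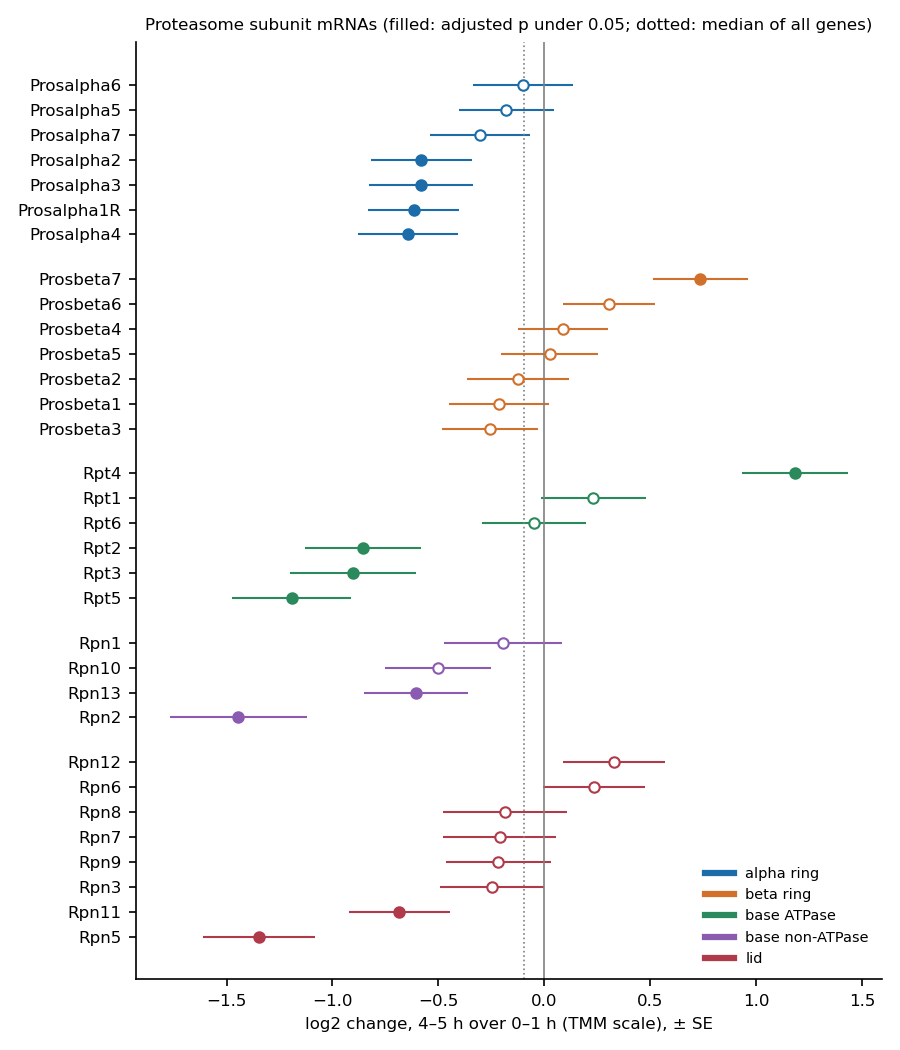
Log2 change of each tested proteasome subunit RNA, 4–5 h over 0–1 h, on the horizontal axis (TMM scale), with bars of 1 SE; rows are genes coloured by class, filled points have an adjusted p under 0.05, and the dotted line is the median of all tested genes. The alpha ring lies left of 0, between −0.64 and −0.10, the beta ring between −0.26 and 0.74 and the base ATPases between −1.19 and 1.18; on library size alone all members lie below 0 (Rpt4 −0.0087, Prosbeta7 −0.45), as on log2(TPM + 1).

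The alpha ring leaned lower. All 7 tested alpha subunits had a fitted change below 0 (median −0.58, range −0.64 to −0.10) and 4 of them fell, beside 31.5% of all tested genes: Prosalpha4, Prosalpha1R, Prosalpha3 and Prosalpha2. Prosalpha4 (FBgn0004066, chromosome X, 16276270 to 16277587) had 234 and 168 CPM in the 4–5 h libraries, against 307 and 331 CPM in the 0–1 h libraries. Its 4–5 h libraries both lay below its 0–1 h libraries (201 ± 46.8 CPM at 4–5 h and 319 ± 16.8 CPM at 0–1 h; log2 change −0.64, SE 0.23, adjusted p = 0.014). Prosalpha2 (FBgn0086134, chromosome 3R, 12431321 to 12432556) had 231 and 158 CPM at 4–5 h, against 283 and 308 CPM at 0–1 h, again without overlap (log2 change −0.58, SE 0.24, adjusted p = 0.0292). For Prosalpha3 (FBgn0261394, chromosome 2R, 20994900 to 20996118), the subunit whose tail lies at the centre of the closed gate in yeast, the levels were 204 and 125 CPM at 4–5 h, against 232 and 272 CPM at 0–1 h (log2 change −0.58, SE 0.25, adjusted p = 0.0346).

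The subunits of the same ring that were not called overlapped between ages. Prosalpha7 had 339.8 and 178 CPM at 4–5 h, against 309.5 and 344 CPM at 0–1 h (log2 change −0.30, adjusted p = 0.268). Prosalpha5 had 379.8 and 234 CPM at 4–5 h, against 364 and 342 CPM at 0–1 h (log2 change −0.18, adjusted p = 0.499). Prosalpha6 had 298 and 188 CPM at 4–5 h, against 236 and 295 CPM at 0–1 h (log2 change −0.10, adjusted p = 0.728). In each of these, 4–5 h replicate 1 was near or above the 0–1 h libraries and 4–5 h replicate 2 was below them. That gap between replicates ran through the ring: all 7 alpha subunits were higher in 4–5 h replicate 1 than in replicate 2, by a median of 0.66 log2 units, while the median gap over all 32 members was 0.13. Of the beta subunits 6 of 7 were also higher in replicate 1, by a median of 0.28. The medians were −0.13 in the base ATPases, −0.06 in the other base subunits and 0.07 in the lid. The alpha ring calls depended on single libraries. The number of alpha subunits called lower was 0 without 0–1 h replicate 2, 2 without 0–1 h replicate 1, 1 without 4–5 h replicate 2 and 5 without 4–5 h replicate 1. Without 4–5 h replicate 2, Prosalpha5, Prosalpha6 and Prosalpha7 turned above 0 (0.11, 0.17 and 0.059), and without 4–5 h replicate 1 Prosalpha7 fell (log2 change −0.87, adjusted p = 0.0113). With DESeq2 the number of alpha subunits called lower was 0, a test that called 18.6% of all tested genes lower, and it was 7 on library size alone.

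Prosalpha1R stands for a pair of neighbouring genes of the same structure. It lies on the minus strand of chromosome 2R at 7830413 to 7831771 (FBgn0050382), 1734 nt from Prosalpha1 (FBgn0263121, 7827303 to 7828678) on the same strand. Exons 2 to 4 of both genes have the same lengths, 100, 177 and 580 nt, and both have 732 nt of coding sequence. Prosalpha1R had 365 and 333 CPM in the 4–5 h libraries, against 519 and 556 CPM in the 0–1 h libraries, so its 4–5 h libraries were both the lower ones (349 ± 22.7 CPM at 4–5 h and 537 ± 26.0 CPM at 0–1 h; log2 change −0.62, SE 0.21, adjusted p = 0.00952). Prosalpha1, the copy with the plain subunit name, had 0 and 0 reads at 4–5 h, against 0 and 23 reads at 0–1 h. How the counting divided reads between such close copies was not tested, so the assignment to one copy is uncertain. Summed over both, the pair had 201 and 101 reads at 4–5 h, against 456 and 483 reads at 0–1 h, and fell (log2 change −0.65, SE 0.21, adjusted p = 0.00613 in edgeR). The call of Prosalpha1R alone was lost with DESeq2 (adjusted p = 0.0846) and without 0–1 h replicate 2 (edgeR adjusted p = 0.0997).

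In the beta ring, which forms the cutting chamber, no subunit fell on the TMM scale. Of 7 tested beta subunits 1 rose and 0 fell in edgeR, beside 28.6% and 31.5% of all tested genes, with a median change of 0.02 and a range of −0.26 to 0.74, and 0 fell at an unadjusted p under 0.05. With DESeq2 1 was called higher, beside 21.5% of all tested genes, and 0 lower; on library size alone all 7 were called lower. The catalytic members were not called. Prosbeta1, which cuts after acidic residues, had 262 and 195 CPM at 4–5 h, against 290.2 and 245 CPM at 0–1 h (log2 change −0.21, adjusted p = 0.438). Prosbeta2, which cuts after basic residues, had 222 and 178 CPM at 4–5 h, against 193 and 246 CPM at 0–1 h (log2 change −0.12, adjusted p = 0.674). Prosbeta5, the chymotrypsin-like subunit, had 305 and 251 CPM at 4–5 h, against 287 and 263 CPM at 0–1 h (log2 change 0.02, adjusted p = 0.932). In all 3 the ages overlapped, so no difference beyond the spread between replicates was seen for the RNAs of the cutting subunits on this scale.

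Among the beta subunits without catalytic activity, Prosbeta7 stood at one end. Prosbeta7 (FBgn0250746, chromosome 3R, 5357012 to 5358364) had 369 and 363 CPM in the 4–5 h libraries, against 199 and 240.4 CPM in the 0–1 h libraries, so the 4–5 h libraries were both above the 0–1 h libraries. Its mean was 366 ± 4.27 CPM at 4–5 h and 219.8 ± 29.2 CPM at 0–1 h, a 1.67-fold rise on the TMM scale (log2 change 0.74, SE 0.23, adjusted p = 0.00363) that turned to −0.45 on library size alone and to −1.20 on log2(TPM + 1). Without 0–1 h replicate 1 the change was 0.57 and no longer called (adjusted p = 0.148 in edgeR). Prosbeta6 leaned the same way without being called: it had 382 and 389 CPM at 4–5 h, against 290.2 and 335 CPM at 0–1 h, with no overlap (log2 change 0.30, adjusted p = 0.226). Prosbeta4 had 391 and 389 CPM at 4–5 h, against 401 and 333 CPM at 0–1 h (log2 change 0.09, adjusted p = 0.741). Prosbeta3, at the other end of the ring, had 322 and 241 CPM at 4–5 h, against 366 and 312 CPM at 0–1 h (log2 change −0.26, adjusted p = 0.327), and in both of these the ages overlapped.

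**Figure D2:**
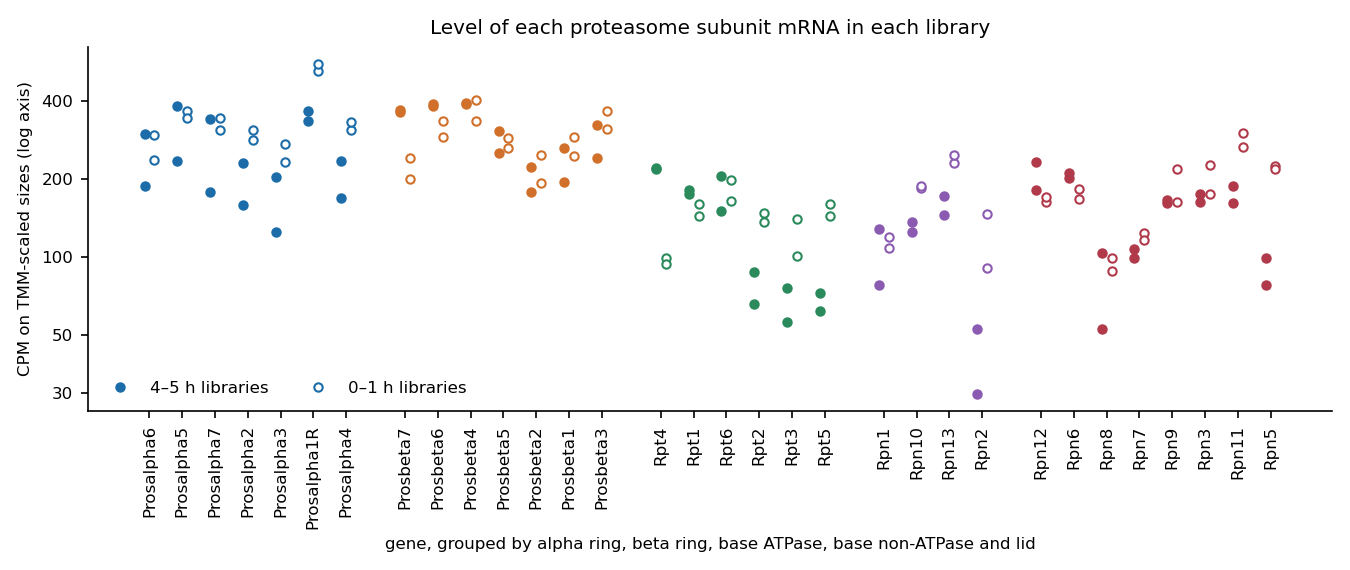
Level of each tested proteasome subunit RNA in each library, in CPM on TMM-scaled library sizes (log axis); filled points are the 4–5 h libraries, open points to their right the 0–1 h libraries, and genes are grouped by class. The ages do not overlap for 20 of the 32 genes, beside 79.8% of all tested genes; Rpt4 has 218 and 221 CPM at 4–5 h, against 99.0 and 94.2 CPM at 0–1 h.

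The balance between the core's rings shifted towards beta subunits. Beta subunits held 33.6% and 34.7% of all proteasome reads at 4–5 h, against 27.7% and 27.0% at 0–1 h (means 34.1 ± 0.777% and 27.3 ± 0.498%, SD, n = 2 each). Alpha subunits held 30.5% and 23.8% at 4–5 h, against 30.8% and 33.8% at 0–1 h, a difference of −5.13 percentage points that rests mostly on 4–5 h replicate 2. Reads of the beta ring over reads of the alpha ring were 1.10 and 1.46 at 4–5 h, against 0.900 and 0.798 at 0–1 h. Both 4–5 h libraries thus had more beta than alpha reads and both 0–1 h libraries fewer. The log2 difference of the ratio was 0.58 (1.49-fold), and with 1 library left out it ranged between 0.38, without 4–5 h replicate 2, and 0.78, without 4–5 h replicate 1. It does not depend on how libraries are scaled, and from TPM in place of reads it was 0.55. This ratio was chosen after its values were seen. With 2 libraries against 2, the two-sided exact permutation test gave p = 0.333, the smallest it can give (0.777 for the beta share after adjustment over the 7 shares tested).

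The shares of core, base and lid did not separate the ages. The core held 64.1% and 58.5% of proteasome reads at 4–5 h, against 58.5% and 60.8% at 0–1 h (p = 0.667, exact permutation, two-sided). The base held 17.5% and 21.9% at 4–5 h, against 21.0% and 20.1% at 0–1 h (p = 1.0, exact permutation). The lid held 18.4% and 19.6% at 4–5 h, against 20.5% and 19.1% at 0–1 h (p = 0.667, exact permutation). In all 3 the libraries of the ages overlapped. Within the base, the non-ATPase subunits held 6.13% and 7.83% at 4–5 h, against 9.32% and 8.68% at 0–1 h, without overlap (difference −2.02 points, exact permutation p = 0.333).

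**Figure D3:**
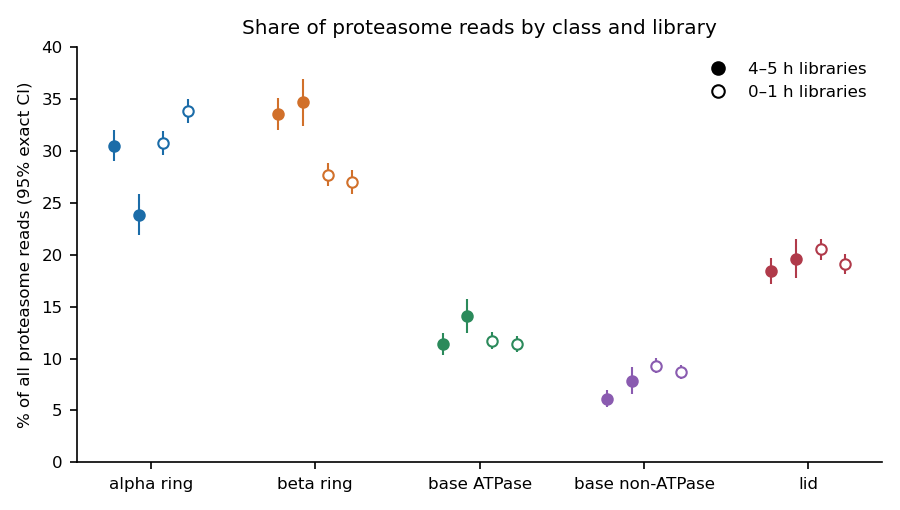
Share of all proteasome reads held by each class of subunit in each library, in percent, with exact 95% binomial intervals as bars; filled points are the 4–5 h libraries and open points the 0–1 h libraries. The beta ring is at 33.6% and 34.7% at 4–5 h, against 27.7% and 27.0% at 0–1 h, and the 2 alpha ring points at 4–5 h are 30.5% and 23.8%.

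The ATPase ring of the base held changes in both directions on the TMM scale. Of its 6 tested members 3 fell, 1 rose and 2 were not called, beside 31.5% and 28.6% of all tested genes that fell and rose. Their changes ran between −1.19 and 1.18 with a median of −0.45. Their SD was 0.89 log2 units, beside 0.23 to 0.53 in the other 4 classes. The base ATPases form a heterohexamer that uses ATP to pull substrates into the core. Rpt4 (FBgn0028685, chromosome X, 6289470 to 6291245) had 218 and 221 CPM in the 4–5 h libraries, against 99.0 and 94.2 CPM in the 0–1 h libraries. Its mean was 219.6 ± 2.09 CPM at 4–5 h and 96.6 ± 3.38 CPM at 0–1 h, 2.27-fold higher at 4–5 h on the TMM scale (log2 change 1.18, SE 0.25, adjusted p = 3.5e-05), but −0.0087 on library size alone and −0.75 on log2(TPM + 1). The call was kept with any 1 library left out (log2 change 1.13 to 1.19, adjusted p up to 0.011 in edgeR). A gene on the other strand, wuho, overlaps it by 93 nt and had 22 and 9 reads at 4–5 h, against 32 and 34 reads at 0–1 h.

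Rpt5 moved the opposite way. Rpt5 (FBgn0028684, chromosome 3R, 23752876 to 23754623) had 61.8 and 72.6 CPM at 4–5 h, against 159 and 144 CPM at 0–1 h, so both 4–5 h values lay well below both 0–1 h values. Its mean was 67.2 ± 7.63 CPM at 4–5 h and 152 ± 11 CPM at 0–1 h, 2.28-fold lower at 4–5 h (log2 change −1.19, SE 0.28, adjusted p = 0.000164), and it was called lower under all 13 alternatives, at an adjusted p of up to 0.0118 with 1 library left out. Rpt3 (FBgn0028686, chromosome X, 11125101 to 11126785) had 56.3 and 75.9 CPM at 4–5 h, against 101 and 140.1 CPM at 0–1 h, and fell (log2 change −0.90, SE 0.30, adjusted p = 0.00672). Rpt2 (FBgn0015282, chromosome 3R, 23929873 to 23931558) had 87.2 and 66.0 CPM at 4–5 h, against 137 and 147 CPM at 0–1 h, and fell (log2 change −0.86, SE 0.27, adjusted p = 0.00532). In yeast the tails of Rpt2, Rpt3 and Rpt5 dock into the alpha ring. This shared trait was noticed after the values were seen, and its part in the changes was not tested. The calls of Rpt2 and Rpt3 were lost with DESeq2 (adjusted p = 0.0943 and 0.12) and without 0–1 h replicate 2 (edgeR adjusted p = 0.0587 and 0.172), and that of Rpt3 also without 4–5 h replicate 1 (0.135).

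Rpt1 and Rpt6 were not called. Rpt1 had 182 and 175 CPM at 4–5 h, against 160.4 and 144 CPM at 0–1 h, so that the ages did not overlap, but by less than the error of the fit (log2 change 0.23, adjusted p = 0.427). It lies wholly inside the same-strand gene CG17985, which itself had 9 and 2 reads at 4–5 h, against 9 and 14 reads at 0–1 h. Rpt6 had 151 and 205 CPM at 4–5 h, against 198 and 164 CPM at 0–1 h, with overlap (log2 change −0.05, adjusted p = 0.872).

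Ratios between ATPases within a library need no scaling. In yeast the ring is assembled from the pairs Rpt4–Rpt5, Rpt6–Rpt3 and Rpt1–Rpt2, which here served to order the ratios, after the values of the single genes had been seen and with the gene of the higher change on top, so that their direction was set by that choice and they are a description of size only. Rpt4 over Rpt5 was 3.53 and 3.05 at 4–5 h, against 0.621 and 0.656 at 0–1 h, a 5.14-fold higher ratio. Rpt4 reads thus outnumbered Rpt5 reads in both 4–5 h libraries and were outnumbered in both 0–1 h libraries. Rpt1 over Rpt2 was 2.08 and 2.65 at 4–5 h, against 1.18 and 0.975 at 0–1 h (2.20-fold). Rpt6 over Rpt3 was 2.68 and 2.70 at 4–5 h, against 1.96 and 1.17 at 0–1 h (1.77-fold). Without 1 library the log2 difference ranged between 2.26 and 2.47 for Rpt4 over Rpt5 and between 0.96 and 1.31 for Rpt1 over Rpt2. For Rpt6 over Rpt3 it ranged between 0.46 and 1.20, the lowest without 0–1 h replicate 2.

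**Figure D4:**
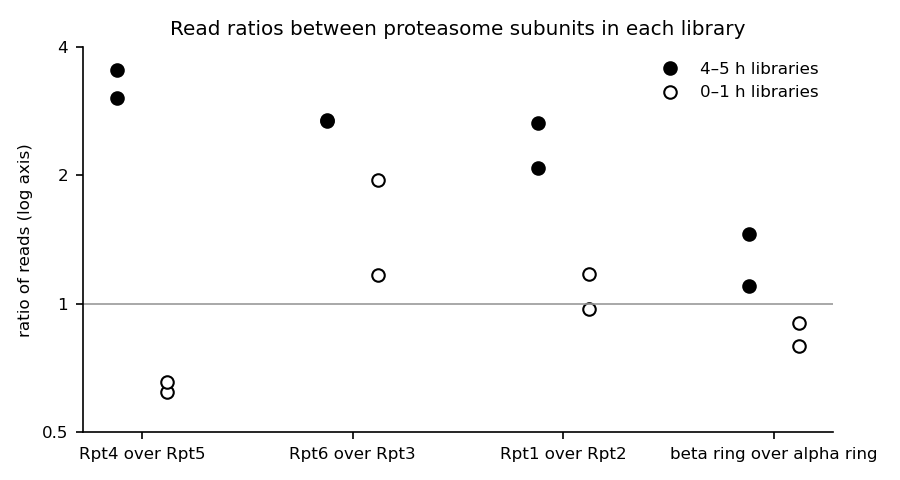
Ratio of reads between ATPases of the base, and between beta and alpha rings, in each library (log axis, no unit); filled points are the 4–5 h libraries, open points the 0–1 h libraries, and the line marks a ratio of 1. The ratios were set with the gene or ring of the higher change on top, and both 4–5 h libraries lie above both 0–1 h libraries in all 4, with Rpt4 over Rpt5 at 3.53 and 3.05 at 4–5 h, against 0.621 and 0.656 at 0–1 h.

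The other base subunits, which hold ubiquitin receptors and scaffolds, had changes below 0. Of the 4 tested, Rpn2 and Rpn13 fell and Rpn10 and Rpn1 were not called (median −0.55), beside 31.5% of all tested genes that fell. Rpn2 (FBgn0028692, chromosome 3R, 29153524 to 29157255), the scaffold that carries Rpn13, had 52.7 and 29.7 CPM at 4–5 h, against 147 and 90.6 CPM at 0–1 h. That was the lowest change among the 32 tested members on the TMM scale (41.2 ± 16.3 CPM at 4–5 h and 119 ± 39.7 CPM at 0–1 h; log2 change −1.44, SE 0.32, adjusted p = 8.69e-05), and it was called under all 13 alternatives, at an adjusted p of up to 0.0395 with 1 library left out. The 2 libraries of each age differed by more than 1.5 times in Rpn2, without overlap between ages. Rpn13 (FBgn0033886, chromosome 2R, 13958545 to 13960404), a ubiquitin receptor, had 145 and 172 CPM at 4–5 h, against 231 and 248 CPM at 0–1 h, and fell (log2 change −0.61, SE 0.24, adjusted p = 0.0264). That call was lost with DESeq2 (adjusted p = 0.177) and without 0–1 h replicate 1 (0.0865), 0–1 h replicate 2 (0.166) or 4–5 h replicate 1 (0.124, all edgeR). Rpn10, another ubiquitin receptor, had 136 and 125 CPM at 4–5 h, against 184 and 188 CPM at 0–1 h; the ages did not overlap, but the change missed the threshold (log2 change −0.50, adjusted p = 0.0766). Rpn1, the docking site for shuttle proteins that bring substrates, had 78.1 and 129 CPM at 4–5 h, against 119 and 109 CPM at 0–1 h and overlapped (log2 change −0.20, adjusted p = 0.556).

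The lid had 2 members that fell among 8 tested, near the 31.5% of all tested genes that fell, with a median change of −0.21. In it 0 rose in edgeR, beside 28.6% (0 at an unadjusted p under 0.05, and 0 with DESeq2). Rpn5 (FBgn0028690, chromosome 3R, 5789493 to 5791569), a scaffold subunit, had 78.1 and 99.0 CPM in the 4–5 h libraries, against 224 and 219 CPM in the 0–1 h libraries. The mean was 88.6 ± 14.7 CPM at 4–5 h and 221 ± 3.91 CPM at 0–1 h, 2.54-fold lower at 4–5 h (log2 change −1.35, SE 0.26, adjusted p = 8.35e-06), and the gene was called lower under all 13 alternatives (adjusted p of up to 0.00359 with 1 library left out). Rpn11 (FBgn0028694, chromosome 2L, 5058404 to 5059790), the metalloprotease that cuts ubiquitin off substrates, had 187 and 162 CPM at 4–5 h, against 265 and 299.6 CPM at 0–1 h. It fell as well (log2 change −0.68, SE 0.24, adjusted p = 0.0104), though not with DESeq2 (adjusted p = 0.101) or without 0–1 h replicate 2 (0.125). Its inactive partner Rpn8 had 104 and 52.8 CPM at 4–5 h, against 99.0 and 88.2 CPM at 0–1 h, with 4–5 h replicate 2 far below replicate 1 (log2 change −0.18, adjusted p = 0.601).

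The remaining lid scaffolds were not called in either direction. Rpn12 had 233 and 181 CPM at 4–5 h, against 163 and 170.3 CPM at 0–1 h, without overlap (log2 change 0.33, adjusted p = 0.238). Rpn6, which clamps the lid to the core, had 202 and 211 CPM at 4–5 h, against 183 and 167 CPM at 0–1 h, again higher in both 4–5 h libraries (log2 change 0.24, adjusted p = 0.406). Both turned below 0 on library size alone (−0.87 for Rpn12 and −0.96 for Rpn6). Rpn3 had 164 and 175 CPM at 4–5 h, against 225 and 175 CPM at 0–1 h (log2 change −0.25, adjusted p = 0.389), a separation of the ages by less than 1 CPM. Rpn7 had 107 and 99.0 CPM at 4–5 h, against 124 and 116 CPM at 0–1 h (log2 change −0.21, adjusted p = 0.507). Rpn9 had 165 and 162 CPM at 4–5 h, against 217 and 163 CPM at 0–1 h, where the ages overlapped (log2 change −0.22, adjusted p = 0.457). The highest and lowest changes of the lid, Rpn12 at 0.33 and Rpn5 at −1.35, differed by 1.67 log2 units.

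Against the proteasome's own total, 8 genes were called. This fit scaled each library to its summed proteasome reads, a choice made after the data were seen, so that a change of 0 means a constant share of proteasome RNA. Under it 4 members were higher, beside 32.4% of all tested genes, and 4 were lower, beside 26.1%. The members make up the total, so their rises and falls offset each other by construction (median change −0.004). This does not hold for all tested genes, and the balance of directions among the members is not a result. The higher ones were Rpt4 (1.40, SE 0.23, adjusted p = 2.74e-05), Prosbeta7 (0.96, SE 0.21, adjusted p = 0.000531), Rpn12 (0.54, SE 0.22, adjusted p = 0.0422) and Prosbeta6 (0.53, SE 0.20, adjusted p = 0.031), in log2 units from edgeR. The lower ones were Rpn2 (−1.25, SE 0.33, adjusted p = 0.00283), Rpn5 (−1.13, SE 0.25, adjusted p = 0.000657), Rpt5 (−0.98, SE 0.27, adjusted p = 0.00373) and Rpt2 (−0.65, SE 0.26, adjusted p = 0.0349). Of the alpha subunits, Prosalpha1R had the smallest adjusted p on this scale (log2 change −0.40, adjusted p = 0.0833). These counts depended on single libraries, in fits for which no share of all tested genes is given. Across those fits the members' median change ranged between −0.16 and 0.06, beside 0.03 to 0.20 for all tested genes.

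**Figure D5:**
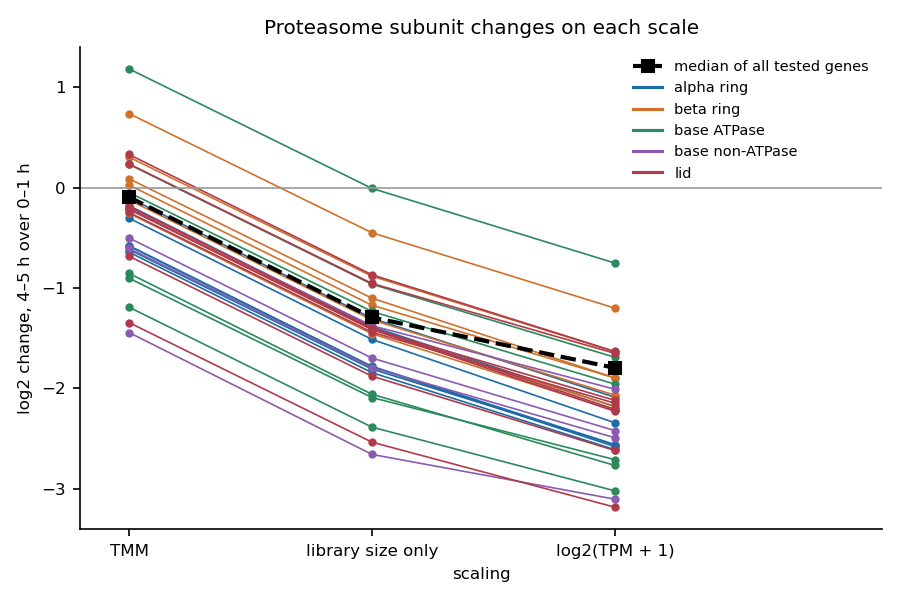
Log2 change of each tested proteasome subunit RNA, 4–5 h over 0–1 h, on 3 scales: TMM, library size only, and the deposited TPM as log2(TPM + 1); thin lines are genes coloured by class and the dashed line is the median of all tested genes (−0.10, −1.29 and −1.80). The order of the genes is much the same on each scale, with Rpt4 highest, at 1.18, −0.0087 and −0.75.

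Of the 16 T and R paralogues, all but Prosalpha1R, described above with its neighbour, had few or 0 reads at both ages. In Drosophila the T-named ones are known from the male germ line, where they are known as subunits of a testis form of the proteasome. Prosalpha3T, Prosalpha4T1, Prosalpha4T2, Prosalpha6T, Prosbeta2R1, Prosbeta4R1, Prosbeta4R2, Prosbeta5R1, Prosbeta5R2, Rpn12R, Rpn13R, Rpt4R and Rpt6R had 0 reads in all 4 libraries, which allows up to 3 reads per library. Prosbeta2R2 had 3 and 3 reads at 4–5 h, against 0 and 0 reads at 0–1 h, and its partner Prosbeta2 had 122 and 54 reads at 4–5 h, against 170 and 204 reads at 0–1 h. Rpt3R had 5 and 1 reads at 4–5 h, against 2 and 0 reads at 0–1 h, and its partner Rpt3 had 31 and 23 reads at 4–5 h, against 89 and 116 reads at 0–1 h. Neither paralogue passed the floor of 3 reads in more than 1 library, so no change is given for them. Of 18 sperm and testis markers 17 had 0 reads in every library, and the exception, mia, had 7 and 3 reads at 4–5 h, against 2 and 3 reads at 0–1 h.

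Per transcript length, core subunits had the higher median level at both ages. TPM divides by length, and core transcripts had shorter medians than those of base and lid, given below. The part of that division in the order of the classes was not tested. The median over tested core members was 103 and 78.0 TPM at 4–5 h, against 413 and 378 TPM at 0–1 h. For the base it was 21.3 and 22.4 TPM at 4–5 h, against 111 and 101 TPM at 0–1 h, and for the lid 27.5 and 31.2 TPM at 4–5 h, against 144 and 111 TPM at 0–1 h. The core median was thus the highest in each library, though single members crossed: in 4–5 h replicate 1 Rpn12 of the lid had 71.3 TPM and Prosalpha4 57.8 TPM. Summed CPM, not divided by length, was 4309 and 3401 for the core (14 tested genes) at 4–5 h, against 4278 and 4450 at 0–1 h. For the base (10 tested genes) it was 1178 and 1273, against 1538.5 and 1469. For the lid (8 tested genes) it was 1239 and 1141, against 1501 and 1398. The highest member at 4–5 h was Prosbeta4, with 158 and 173 TPM at 4–5 h, against 697 and 549 TPM at 0–1 h. Prosalpha1R was the highest at 0–1 h, with 119 and 119 TPM at 4–5 h, against 727 and 690.5 TPM at 0–1 h. Rpn2 was at the low end, with 3.91 and 2.43 TPM at 4–5 h, against 46.9 and 25 TPM at 0–1 h. So was Rpn1, with 6.39 and 11.6 TPM at 4–5 h, against 42.1 and 34.0 TPM at 0–1 h, and these have the longest transcripts among the tested members, at 3352 nt for Rpn2 and 3041 nt for Rpn1. In mean CPM, which is not divided by length, Rpn8 (93.6) and Rpt4 (96.6) lay below Rpn1 (114) and Rpn2 (119) at 0–1 h. At 4–5 h Rpn2 stayed the lowest, at 41.2 CPM. The TPM ratio of the highest to the lowest member was 40.3 and 71.4 in the 4–5 h libraries, against 17.3 and 27.6 in the 0–1 h libraries. The lowest member at 4–5 h, Rpn2, had 29 and 9 reads there. Over all tested members the SD of log2 TPM was 1.39 and 1.30 at 4–5 h, against 1.08 and 1.18 at 0–1 h. It was 1.13 and 1.29 against 0.74 and 0.90 in the base, and 0.81 and 0.80 against 0.58 and 0.67 in the lid. In the core it was 0.44 and 0.61 at 4–5 h, against 0.51 and 0.41 at 0–1 h, so there the ages overlapped.

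Transcript length differed between the classes. Median lengths were 973 nt in the alpha ring, 944 nt in the beta ring, 1483 nt in the base ATPases, 2260 nt in the other base subunits and 1430 nt in the lid. Across the 32 tested members, the rank correlation of length with log2 change was −0.255, and across all 6042 tested genes it was −0.22. The points share their libraries, and the part of length in the changes was not tested. Within the ATPase ring, Rpt5, which fell, was the longest at 1627 nt, and Rpt4, which rose on the TMM scale (−0.0087 on library size alone and −0.75 on log2(TPM + 1)), had 1465 nt.

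Members that fell lay on 4 of 5 chromosome arms. On 3R 5 of 9 tested members fell and 1 rose, on 2R 3 of 10 fell, on X 2 of 4 fell and 1 rose, on 2L 1 of 4 fell, and on 3L 0 of 5. Over all tested genes the share that fell was 30.1% on 3R, 30.1% on 2R, 38.3% on X, 32.2% on 2L and 28.8% on 3L, and with so few members per arm nothing is read from these counts. The genes of Rpn9, Rpt5 and Rpt2 lie in this order within a short stretch of 3R, where Rpn9 was not called and the other two fell.

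No change in isoform use was called. Reads fell on more than 1 transcript in 9 members, and diffSpliceDGE gave a p for 4 of these. In Rpn8 the reads were split evenly between transcripts of equal length in every library, so its test could not show a change. Of the other 3, 0 were called and 0 had an unadjusted p under 0.05, beside 14.2% called among the 823 genes tested. The smallest p-values were those of Rpn9 (adjusted p = 0.473), Rpn13 (0.924) and Prosbeta5 (0.963). Replicates of an age did not give the same assignment. The longer Rpn9 transcript of 1578 nt took 29.1% and 81.3% of Rpn9 reads at 4–5 h, against 26.4% and 7.18% at 0–1 h. The shorter Prosbeta5 transcript of 1076 nt took 39.1% and 67.2% at 4–5 h, against 49.6% and 0% at 0–1 h. For Rpn13, the transcript of 1390 nt took 0% and 56.9% at 4–5 h, against 10.3% and 17.1% at 0–1 h.

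Genes of the surrounding ubiquitin system covered a wider range of changes, −4.12 to 2.99, than the subunits, at −1.44 to 1.18. Over 7 lists of 71 named genes, 67 were tested, of which 26 rose and 10 fell on the TMM scale, beside 28.6% and 31.5% of all tested genes, while on library size alone 10 were called higher and 42 lower, beside 10.8% and 63.4%. The counts of the single lists are small and stand beside the same shares. Each list's median change can be read against the −0.10 of all tested genes.

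Regulators and assembly factors of the proteasome had 3 risers and 1 faller among 12 (median 0.20). The number of fallers changed without 4–5 h replicate 2. REG, the activator cap of the nuclear core particle, averaged 522 ± 52.9 CPM at 4–5 h and 183 ± 0.289 CPM at 0–1 h, and rose (log2 change 1.51, SE 0.22, adjusted p = 8.45e-09; −0.70 on log2(TPM + 1)). The transcription factor cnc, whose mammalian relative Nrf1 drives proteasome genes, averaged 31.5 ± 11.9 CPM at 4–5 h and 122 ± 33.8 CPM at 0–1 h, and fell (log2 change −1.86, SE 0.33, adjusted p = 1.38e-06). Its small Maf partner maf-S went the other way at 323 ± 88.1 CPM at 4–5 h and 78.9 ± 7.44 CPM at 0–1 h (log2 change 2.05, SE 0.25, adjusted p = 4.05e-11), a call lost on log2(TPM + 1) (0.058, limma adjusted p = 0.819). The remaining riser was CG9588, at 119.9 ± 7.69 CPM at 4–5 h and 43.0 ± 10.9 CPM at 0–1 h (log2 change 1.47, adjusted p = 1.34e-05; −0.44 on log2(TPM + 1)).

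Of 4 genes that encode ubiquitin, 2 rose and 1 fell on the TMM scale (median 1.01). RpS27A and RpL40, in which ubiquitin is fused to a ribosomal protein, rose on the TMM scale (log2 change 1.91, adjusted p = 1.26e-14 for RpS27A and log2 change 1.90, adjusted p = 9.19e-14 for RpL40), with −0.042 and −0.055 on log2(TPM + 1). The polyubiquitin gene Ubi-p5E averaged 189 ± 59.2 CPM at 4–5 h and 451 ± 43.1 CPM at 0–1 h and fell (log2 change −1.28, adjusted p = 2.02e-06). The other polyubiquitin gene, Ubi-p63E, was not called (log2 change 0.13, adjusted p = 0.708; −1.06 on library size alone and −1.64 on log2(TPM + 1)).

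Among 13 genes listed for the activation and conjugation of ubiquitin or a ubiquitin-like protein, 6 rose and 2 fell (median 0.51). The number that fell depended on single libraries. The risers lwr (log2 change 2.33, adjusted p = 1.21e-15; not called on log2(TPM + 1), 0.31) and Aos1 (log2 change 1.25, adjusted p = 2.36e-06) belong to the pathway of SUMO, a ubiquitin-like protein. So does the riser Uba2 (log2 change 0.73, adjusted p = 0.00878 in edgeR), which was not followed on other scales. These SUMO genes are counted among the 6 risers. Aos1 turned to −0.69 on log2(TPM + 1), and it overlaps Prosalpha2 by 24 nt on the other strand. Ubc7, a conjugating enzyme of quality control at the endoplasmic reticulum, rose (log2 change 1.94, adjusted p = 6.58e-09; −0.017 on log2(TPM + 1)). The remaining risers were the conjugating enzymes eff (log2 change 1.13, adjusted p = 3.45e-06) and ben (log2 change 0.54, adjusted p = 0.0372, both edgeR). These were not followed on other scales. Uba1, the activating enzyme of ubiquitin, and the conjugating enzyme Ubc4 fell (log2 change −1.26, adjusted p = 0.00013 for Uba1 and log2 change −1.14, adjusted p = 6.3e-05 for Ubc4). The call of Uba1 was lost without 0–1 h replicate 1 (adjusted p = 0.0528 in edgeR) and without 4–5 h replicate 1 (0.0583).

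Genes listed with the p97 segregase, which extracts ubiquitinated proteins for the proteasome, had 1 riser and 2 fallers among 5 (median −0.38). Npl4, its cofactor, averaged 47 ± 17.6 CPM at 4–5 h and 155 ± 4.22 CPM at 0–1 h (log2 change −1.80, adjusted p = 4.12e-07). The other faller on the list, Ufd4, is a ubiquitin ligase and not a part of the segregase (log2 change −1.73, adjusted p = 6.22e-05 in edgeR). The listed name Ufd1-like was not matched in the annotation and was not analysed. TER94, the segregase itself, rose on the TMM scale (log2 change 0.60, adjusted p = 0.018), but had −0.58 on library size alone and −1.32 on log2(TPM + 1). Its call was lost with DESeq2 (adjusted p = 0.0886) and without 0–1 h replicate 1 (0.0962), 0–1 h replicate 2 (0.222) or 4–5 h replicate 2 (0.144, all edgeR).

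SCF and cullin ligase genes had 6 risers and 2 fallers among 13 (median 0.47). The number of fallers dropped without either 0–1 h replicate and without 4–5 h replicate 1. The RING subunit Roc1a and the adaptor SkpA rose on the TMM scale (log2 change 2.09, adjusted p = 8.3e-14 and log2 change 2.09, adjusted p = 5.17e-11), and neither was called with limma on log2(TPM + 1), at 0.083 for Roc1a (adjusted p = 0.66) and 0.28 for SkpA (adjusted p = 0.213). Uba3, part of the activating enzyme of Nedd8, the ubiquitin-like protein that is attached to cullins, fell (log2 change −1.74, adjusted p = 1.94e-05).

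The anaphase-promoting complex, the ligase that hands cyclins to the proteasome, had 4 risers and 2 fallers among 13 (median 0.14). Without either 0–1 h replicate, or without 4–5 h replicate 1, both numbers dropped for the complex. Its activator fzy averaged 396 ± 74.4 CPM at 4–5 h and 49.2 ± 0.422 CPM at 0–1 h (log2 change 2.99, SE 0.26, adjusted p = 2.95e-17). Its subunit APC7 averaged 6.93 ± 0.475 CPM at 4–5 h and 125 ± 14.6 CPM at 0–1 h, with 4 and 2 reads at 4–5 h, against 119 and 95 reads at 0–1 h (log2 change −4.12, SE 0.44, adjusted p = 2.41e-13). The conjugating enzyme vih rose on the TMM scale (log2 change 0.89, adjusted p = 0.000252), but had −0.30 on library size alone and −1.05 on log2(TPM + 1).

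The COP9 signalosome, a complex built on the same plan as the lid, had 4 risers and 0 fallers among 7 tested genes (median 0.81; 0 fallers at an unadjusted p under 0.05 and 0 with DESeq2). Without 0–1 h replicate 1 or 4–5 h replicate 1 it had fewer risers. CSN8 averaged 349 ± 3.08 CPM at 4–5 h and 76.0 ± 8.39 CPM at 0–1 h (log2 change 2.19, SE 0.25, adjusted p = 2.03e-12), a call lost on log2(TPM + 1) (0.25, limma adjusted p = 0.291). CSN7 rose (log2 change 1.42, adjusted p = 1.12e-05; −0.52 on log2(TPM + 1)). CSN4 rose on the TMM scale (log2 change 1.00, adjusted p = 0.00153), but had −0.21 on library size alone and −1.05 on log2(TPM + 1). It was not called with DESeq2 (adjusted p = 0.0517) or without 0–1 h replicate 1 (0.058) or 4–5 h replicate 1 (0.356).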

How the data were processed

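RNA of whole embryos was read by Nanopore direct RNA sequencing in 4 libraries, 2 at 4–5 h and 2 at 0–1 h. Per the submitters' processing notes, minimap2, Salmon and the build BDGP6 were used, with versions and settings not given in the sources used here. Per transcript, the authors deposited expected counts from Salmon, not normalised, and TPM, which per the file headers rest on an effective length. Of 30652 listed transcripts, 30280 were matched by identifier to Ensembl release 115 (BDGP6.54), and 99.4% of these had the same length there; 371 fly transcripts had no match and kept their own identifiers, and 1 control entry of another organism (0 to 7 reads) was left out. Coordinates are those of that annotation.

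Per-gene sums of the expected counts, rounded, went into edgeR 4.0.16 under R 4.3.3 (minimum count of 10 in filterByExpr, TMM, robust quasi-likelihood fit, age as the only term, Benjamini-Hochberg over all 6042 tested genes). Adjusted p-values of single genes come from this fit unless another is named. Shares carry exact 95% (Clopper-Pearson) intervals. limma 3.58.1 on log2(TPM + 1), DESeq2 1.42.0, other scalings and filters, thinning to 429518 reads, a replicate block and leaving out each library were the alternatives. The edgeR step was tested on simulated counts with 200 changed genes.

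All members are accounted for. Named with values in every library were the highest and lowest member of each class, every member called lower or not called, the catalytic beta subunits, suffix paralogues with reads beside their partners, and the 3 smallest isoform p-values; of each pathway list, the 3 genes with the smallest p, of which 1 is not reported here. CG9588, Ubi-p63E, Uba1, Uba2, Ubc4, eff, ben and Uba3 were named after their values were seen. The members, the pathway lists and the markers were chosen with earlier results of these data known. Promoter sequences were not analysed here.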

Additional observations from a re-analysis of the deposited data

How the results depend on the processing

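The number of members called lower was 11 in the main fit, 31 on library size alone, 32 with limma on TPM and 3 with DESeq2. Beside these stood 31.5%, 63.4%, 79.4% and 18.6% of all tested genes. The number was smaller with any 1 library left out, in fits for which no such share is given. The number called higher was 2, and 0 on library size alone and 0 on TPM, beside 28.6%, 10.8% and 5.16%. It dropped without 0–1 h replicate 1. The members' median was −1.41 on library size alone, −2.20 on TPM and −0.49 to −0.20 with 1 library left out. Their median minus that of all tested genes was −0.12, and −0.40 on TPM, −0.55 with no filter and −0.34 to −0.11 with 1 library left out. Of the 67 tested pathway genes, 10 were called higher on library size alone and 1 on TPM, beside 10.8% and 5.16% of all tested genes. Those called lower numbered 42 and 55, beside 63.4% and 79.4%. Relative to the proteasome total, the numbers of members higher and lower depended on which library was left out. Same-numbered libraries did not deviate together (r = −0.16 over 6042 genes), so the numbers were not taken to pair them: with a replicate block 8 members were lower and 2 higher, and with the pairing crossed, chosen after seeing the data, 11 and 2. Rpn2, Rpn5 and Rpt5 were called lower under all 13 alternatives tried for single genes.

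Single genes changed sign as follows. On library size alone these were CSN4 −0.21, Prosbeta4 −1.10, Prosbeta5 −1.17, Prosbeta6 −0.88, Prosbeta7 −0.45, Rpn12 −0.87, Rpn6 −0.96, Rpt1 −0.96, Rpt4 −0.0087, TER94 −0.58, Ubi-p63E −1.06 and vih −0.30. On TPM they were Aos1 −0.69, CG9588 −0.44, CSN4 −1.05, CSN7 −0.52, Prosbeta4 −1.90, Prosbeta5 −1.90, Prosbeta6 −1.64, Prosbeta7 −1.20, REG −0.70, RpL40 −0.055, RpS27A −0.042, Rpn12 −1.63, Rpn6 −1.65, Rpt1 −1.69, Rpt4 −0.75, TER94 −1.32, Ubc7 −0.017, Ubi-p63E −1.64 and vih −1.05. With no filter they were Prosbeta4 −0.0039 and Prosbeta5 −0.068, and with DESeq2 Rpt6 0.000664. With 1 library left out, the genes that turned ranged as follows: Rpt6 −0.26 to 0.18, Prosalpha5 −0.59 to 0.11, Prosalpha6 −0.49 to 0.17, Prosalpha7 −0.87 to 0.059, Prosbeta2 −0.33 to 0.040, Prosbeta4 −0.053 to 0.19, Prosbeta5 −0.13 to 0.15, Rpn1 −0.54 to 0.17, Ubi-p63E −0.22 to 0.56 and Rpn8 −0.82 to 0.15. The cause was not tested. The core's share difference of 1.63 points was −1.16 without 4–5 h replicate 1. Depth limits the genes with few reads, and a change in a suffix paralogue was not detectable at 3 reads per library.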

Other observations

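For a few subunits the assignment of reads to transcripts in 0–1 h replicate 2 stood apart from the other 3 libraries. The Prosbeta4 transcript of 774 nt took 84.7% of that gene's reads there and 0% in each of the others, where the transcript of 815 nt took 100%. Of Rpn2, the transcript of 3412 nt took 100% of reads in the same library and 0% elsewhere. Reads of Prosalpha1, 23 in all, were likewise found in 0–1 h replicate 2 alone. Rpn8 reads were split 50% and 50% in every library between 2 annotated transcripts of the same length, 1456 nt.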
